A study of Mus musculus with 12 samples.

Results

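The change in gene expression from day 0 to day 14 of differentiation was measured in mouse embryonic stem cells (ESCs) that lack Snap29, a SNARE protein which takes part in the fusion of autophagosomes with lysosomes and in other membrane traffic. Snap29-/- cells differentiated for 14 days (KO day 14, 3 libraries) were compared with undifferentiated Snap29-/- ESCs (KO day 0, 3 libraries), and WT cells of the same 2 days (3 libraries each) are set beside them where a difference between genotypes is given. All cells were of the J1 line, of 129S4/SvJae origin. The knockout had been made by CRISPR/Cas9 cutting in exon 2 of Snap29 (chr16:17405986-17430827 in mm10, plus strand), and the undifferentiated knockout cells sequenced were 1 clone with an insertion; whether the same clone was used at day 14 is not given in the sources used here. ESCs were kept without feeder cells in medium with leukemia inhibitory factor (LIF), and were differentiated without LIF, first as embryoid bodies in hanging drops for 3 days and then attached to plates. With 1 clone, the effect of Snap29 and other properties of the clone cannot be told apart. The genes described are those with at least 1 FPKM (fragments per kilobase of gene, scaled to the mapped fragments of the library) in at least 3 of the 6 knockout libraries, which were 13229 of 55471 genes in the table, 11435 of them protein coding.

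An embryoid body is a ball of ESCs that, once LIF is gone, leaves the pluripotent state and forms derivatives of all germ layers side by side. The pluripotent state rests on a network of transcription factors around Pou5f1 (Oct4), Sox2 and Nanog, and its loss is usually followed by epithelial, muscle, endothelial, endodermal and extraembryonic genes in proportions that depend on the culture. All cells of a culture were measured together, so a lower value from fewer cells of a type and one from less RNA per cell cannot be told apart.

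Each knockout library held 18219533 to 18824822 fragments assigned to genes at day 14 and 16874970 to 17485712 at day 0. Snap29 itself had 2.31, 1.87 and 1.88 FPKM at day 14, against 0.611, 0.415 and 0.657 FPKM at day 0, a 3.6-fold rise (log2 change 1.69 ± 0.20, SE, limma adjusted p = 1.5e-04) that was no longer called with a pseudocount of 1. The WT means were 9.06 FPKM at day 14 and 5.99 FPKM at day 0, so that the transcript was low but present in the knockout. A frameshifted transcript can still be counted, and these values do not measure the protein. Atrx, an X-linked chromatin remodeller that was not targeted, was close to 0 in the knockout on both days, with 0.0874, 0.146 and 0.0888 FPKM at day 14, against 0.178, 0.132 and 0.156 FPKM at day 0, while WT cells averaged 10.5 FPKM at day 14 and 12.6 FPKM at day 0. Low Atrx was thus shared by both knockout groups, and its part in any knockout value was not tested.

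Genes were tested with limma on log2(FPKM + 0.1), and a gene was called where the Benjamini-Hochberg adjusted p was under 0.05 and the change was at least 2-fold. In KO day 14 against KO day 0, 2756 genes (20.8% of those tested) were called higher and 1810 (13.7%) lower. The counts called in each gene list below stand beside these shares. Of all called genes, 60.4% were higher, and under quantile scaling of the libraries this share was 48.2%, with 2334 genes higher and 2508 lower, while the median log2 change of all genes moved from -0.02 to -0.19. Of the 4566 calls, 4038 were kept whichever library was left out. The filter itself selects for change, since 1143 genes reached 1 FPKM in all 3 day 14 libraries and in no day 0 library, and 493 the other way round. A list member near 0 on 1 day passes only through the other day, so the counts called in a list depend on the filter. Among the 10572 genes that reached it in all 6 libraries, 1503 were called higher and 1200 lower. The medians of the gene lists move with the filter. Where the text gives a list median, a median over members at 1 FPKM in all 6 libraries is added if it differs by more than 1.5 times or in sign. Some of the lists given by counts alone moved as much. Their medians went from 0.63 to -0.42 for cardiac calcium, ion channel and hormone genes, and from 2.48 to 1.31 for Hox genes. They went from -1.53 to -0.74 for the FGF pathway, from 1.05 to 0.60 for the BMP pathway and from 0.22 to 0.53 for yolk sac and liver proteins. A log2 change on this scale understates the change of low genes, and the p-values speak only of the spread among these cultures. For any single gene, an exact permutation test of 3 against 3 libraries cannot go below p = 0.1. Genes at 0 in all day 0 libraries are given a lower bound of the fold, taken against 3 fragments over that group.

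**Figure D1:**
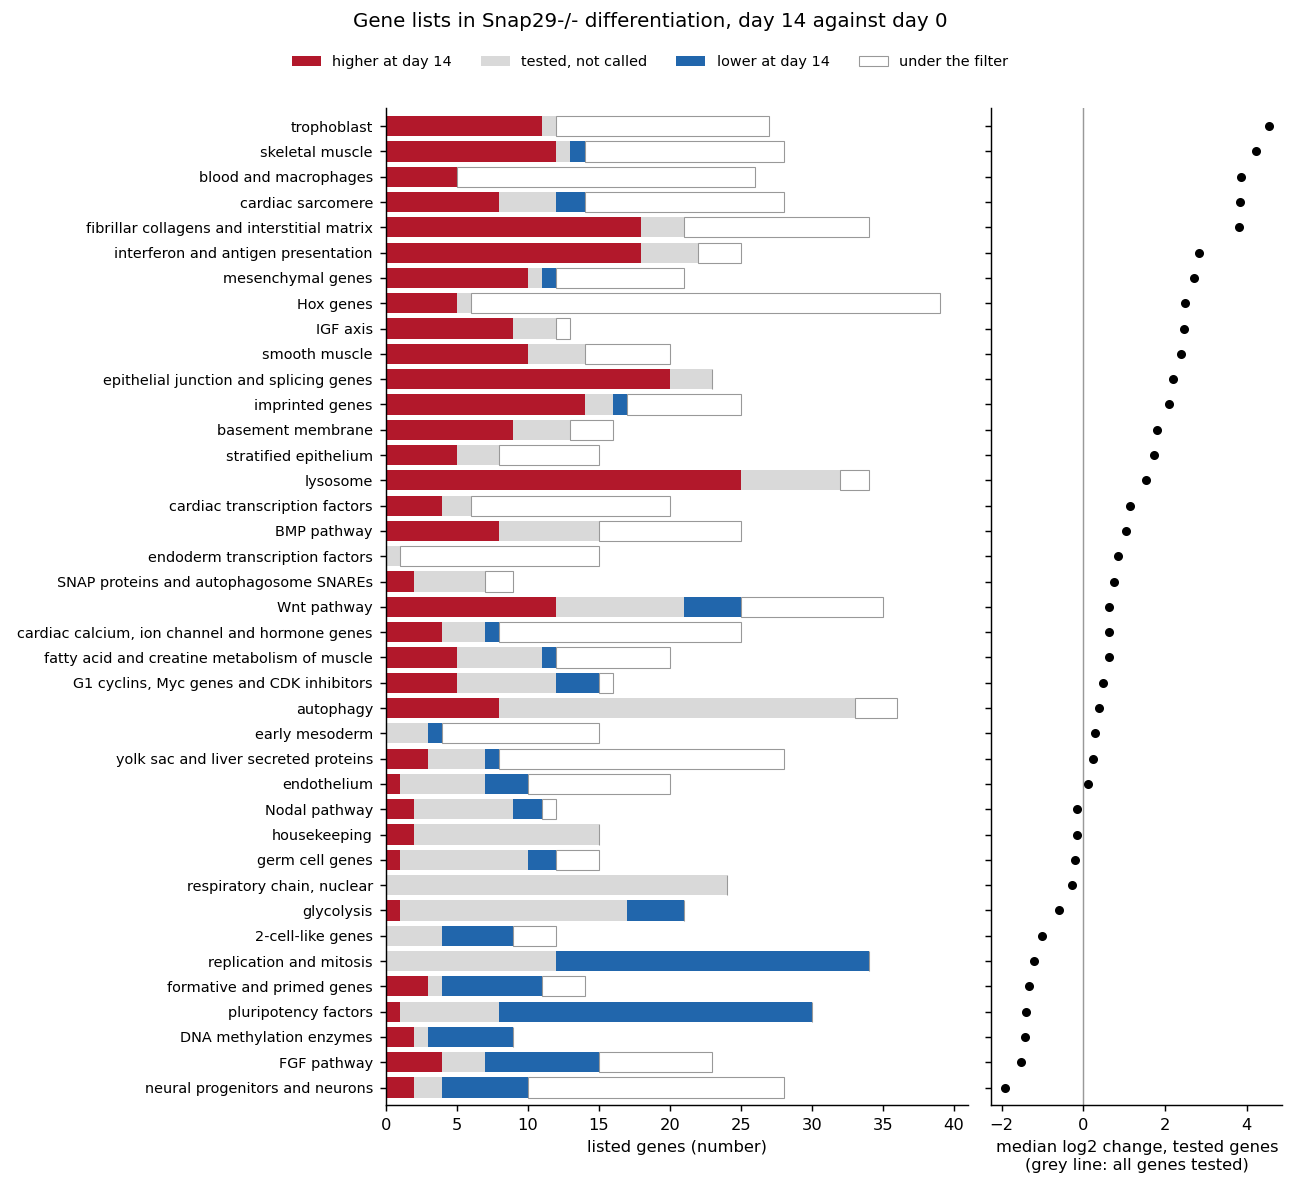
Listed genes in Snap29-/- differentiation, 39 lists ordered by the median log2 change of KO day 14 over KO day 0. Left, the number of genes called higher at day 14 (red), tested and not called (grey), called lower (blue) and under the filter (white); right, the median log2 change over the tested genes of each list (points), with the median of all genes tested (-0.02) as a grey line. The medians cover only members past the filter, which many genes passed on 1 day alone: the trophoblast median was 4.55, but 1.60 over genes at 1 FPKM in all 6 libraries, and the neural median was -1.93, but -0.81.

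The largest rises among called protein-coding genes were in transcripts close to absent at day 0. Psca, a membrane-anchored antigen of several epithelia, had 189, 167 and 149 FPKM at day 14, against 0, 0.0666 and 0.0659 FPKM at day 0 (limma adjusted p = 5.1e-08). Ppbp, a platelet chemokine, had 135, 109.8 and 96.3 FPKM at day 14, against 0 FPKM in all 3 libraries at day 0, at least 2160.3-fold higher. Both were near or at 0 in undifferentiated cells and high in every differentiated library. Ccl7, a chemokine for monocytes, had 97.9, 92.6 and 63.3 FPKM at day 14, against 0 FPKM in all 3 libraries at day 0, at least 1189-fold higher. Sprr1a, a precursor of the cornified envelope, had 63.5, 59.6 and 61.6 FPKM at day 14, against 0 FPKM in all 3 libraries at day 0, at least 871-fold higher. Thbs1, a matrix glycoprotein, rose to 152, 136 and 109 FPKM at day 14, against 0.00938, 0.066 and 0.0653 FPKM at day 0 (log2 change 9.83 ± 0.20, limma adjusted p = 4.8e-08). The other large rises were Tinagl1 (log2 change 9.34), Igfbp6 (8.97), Col5a2 (8.77) and Actc1, which is described with the muscle genes.

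The largest falls among called protein-coding genes began with Gbx2, Etv4 and Spry4. Gbx2, a homeobox gene (chr1:89927956-89931179 in mm10) that helps to maintain naive pluripotency downstream of LIF, had 0.472, 0.399 and 0.518 FPKM at day 14, against 25.5, 26.8 and 24.1 FPKM at day 0, a 55.1-fold fall (log2 change -5.51 ± 0.11, limma adjusted p = 4.5e-08). Etv4, an ETS factor induced by FGF, had 2.09, 1.79 and 1.09 FPKM at day 14, against 67.8, 66.5 and 67.6 FPKM at day 0. Spry4, a feedback inhibitor of the same route, had 0.843, 0.859 and 0.813 FPKM at day 14, against 25.6, 26.1 and 25.6 FPKM at day 0. For all 3, the lowest day 0 library was more than an order of magnitude above the highest at day 14. Inhbb, a subunit of activin B, fell by 5.09 on the log2 scale and Tcf15, a factor that primes ESCs for differentiation, by 4.79. Fgf17, Ina, Pcyt1b, Igsf21 and Cobl made up the rest, with log2 changes from -3.94 to -3.47.

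The most abundant transcripts changed less in identity than these extremes. A total of 5 genes were among the 10 most abundant on both days, mitochondrial and ribosomal protein genes left out: Eef1a1, Dppa5a, Hsp90ab1, Ptma and Eef2. None of them was called, and Eef1a1, the elongation factor that led both days, had 5212, 4905 and 5252 FPKM at day 14, against 4896, 5246 and 4783 FPKM at day 0. The other places at day 14 were taken by H19, Krt18, Krt8, Igfbp2 and Hspb1, which were all called higher. Of the 5 genes that left the top 10, Tuba1b was called lower (428 against 921 FPKM), and Hsp90aa1, Npm1, Mif and Tubb5 were not called.

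**Figure D2:**
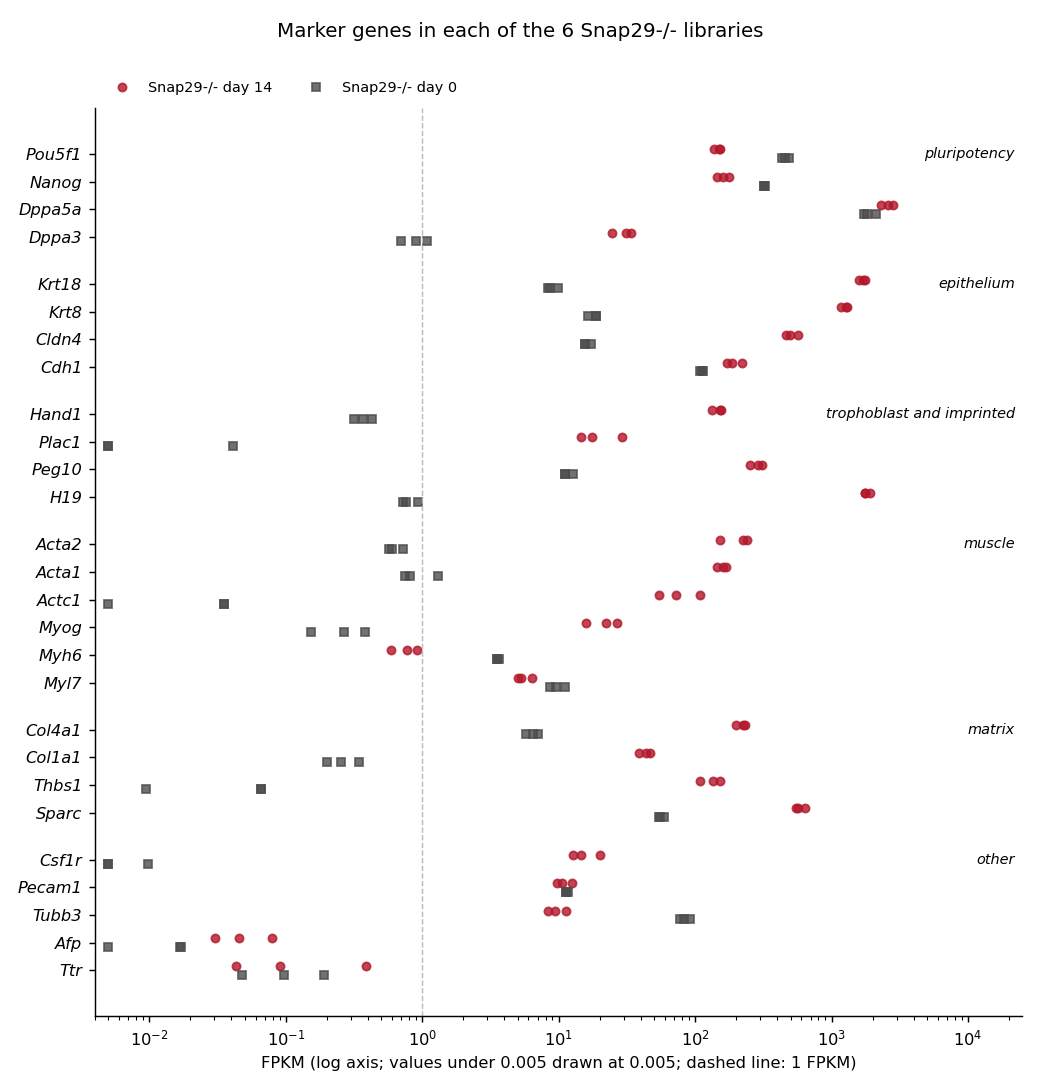
FPKM (log axis) of 27 marker genes in the 6 Snap29-/- libraries, with day 14 as red circles and day 0 as grey squares; values under 0.005 are drawn at 0.005 and the dashed line marks 1 FPKM. Keratins, Cldn4, Hand1, H19 and the actins Acta2, Acta1 and Actc1 were separated by the day, Pou5f1 and Nanog shifted while staying above 100 FPKM, and Afp and Ttr stayed under 1 FPKM on both days.

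Pluripotency factors were lower at day 14 but far from absent. All 30 listed genes were tested; 1 was called higher and 22 lower, with a median log2 change of -1.42 (all genes tested: -0.02). Pou5f1 had 152, 138 and 148 FPKM at day 14, against 455, 485 and 433 FPKM at day 0, which left 31.9% of the day 0 level (log2 change -1.65 ± 0.07, limma adjusted p = 9.7e-07). Sox2 kept 39.1% of its day 0 level, with 65.7, 62.4 and 57.5 FPKM at day 14, against 156, 160.1 and 158 FPKM at day 0. Nanog had 159, 177 and 145 FPKM at day 14, against 321, 324 and 321 FPKM at day 0, or 49.9%, a fall that sits at the 2-fold limit and was not called without KO day 14 replicate 3, with library weights, or in a test against a 2-fold change. The 3 core factors therefore had groups that did not overlap, which held for 4538 of all 4566 called genes. None of the 3 came near 0 after 14 days. Zfp42 (Rex1), a marker of naive ESCs, kept 44.9%, and Esrrb, an orphan nuclear receptor of the same state, 21.8%. Klf4, a direct target of LIF signalling, had 7.72, 9.06 and 5.56 FPKM at day 14, against 61.7, 60.5 and 64.9 FPKM at day 0, the largest loss after Gbx2 in this list (log2 change -3.08 ± 0.16).

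Some members did not follow. Dppa5a, an RNA-binding protein of ESCs and among the most abundant transcripts of both days, had 2798, 2588 and 2309 FPKM at day 14, against 1808, 2097 and 1721 FPKM at day 0, or 137% of day 0, and was not called. Tcl1, a coactivator of Akt, was at 92.3% and Fgf4, the main autocrine FGF of ESCs, at 67.1%, neither called. Klf2, Dppa4, Prdm14 and Rif1 also missed the 2-fold limit, with log2 changes from -0.95 to -0.76. Dppa3 (Stella), which protects the maternal genome from demethylation and marks germ cells and preimplantation embryos, went the opposite way, with 24.4, 31.1 and 33.9 FPKM at day 14, against 0.702, 0.899 and 1.08 FPKM at day 0, a 33.3-fold rise (log2 change 4.92 ± 0.17, limma adjusted p = 4.4e-07). It was the only member of the 30 that was called higher.

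**Figure D3:**
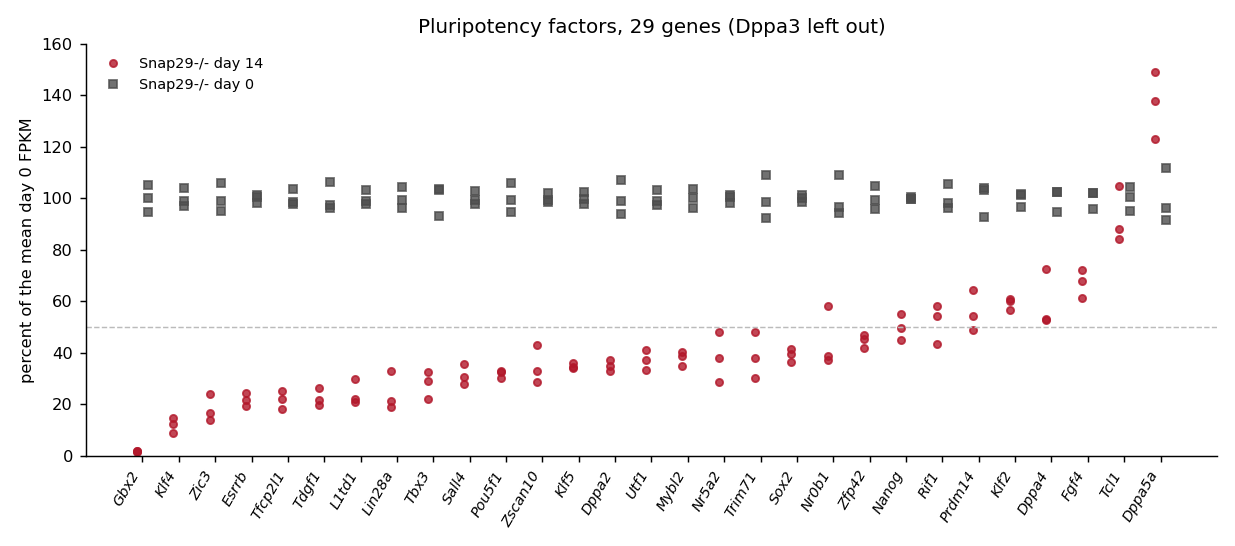
FPKM of 29 pluripotency factors in each Snap29-/- library as a percent of the gene's mean at day 0, ordered by the day 14 mean, with day 14 as red circles and day 0 as grey squares; Dppa3, which rose, is left out and the dashed line marks 50%. Gbx2 lies at the low end, Pou5f1 averages 31.9%, Nanog 49.9%, and Dppa5a lies above its day 0 level at 137%.

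Genes of the formative and primed states, through which pluripotent cells pass on their way to the germ layers, were mostly lower at day 14. The list held 14 genes, 11 of which were tested; 3 were called higher and 7 lower, with a median log2 change of -1.33. Etv5, the partner of Etv4, had 23.2, 28.1 and 39.9 FPKM at day 14, against 112, 108 and 111 FPKM at day 0. Otx2, a homeobox gene of the epiblast and anterior brain, rose to 13.3, 13.5 and 19.9 FPKM at day 14, against 3.97, 4.17 and 3.27 FPKM at day 0, and Fgf5, the classical marker of the primed epiblast, to 2.55, 1.9 and 1.97 FPKM, against 0, 0 and 0.0226 FPKM. Fgf5 thus stayed at a low level. The enzymes that write and erase DNA methylation moved with the list. Of 9 such genes, 6 were called lower and 2 higher: Tet1, which oxidises methylcytosine, fell to 3.31, 5.09 and 5.94 FPKM at day 14, against 48.5, 44.4 and 53.4 FPKM at day 0 (log2 change -3.36 ± 0.20), and the maintenance pair Dnmt1 and Uhrf1 fell by 1.18 and 1.60 on the log2 scale. Dnmt3l, a cofactor of the de novo enzymes without catalytic activity, rose, with 42.7, 47.5 and 77.2 FPKM at day 14, against 13.6, 17.1 and 12.9 FPKM at day 0. Tet3 rose too, at a low level (1.44 against 0.524 FPKM), and that call was lost with a pseudocount of 1 and under quantile scaling.

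The Nodal route, which maintains the primed state and patterns mesendoderm, was mixed. Of 11 tested genes, 2 were called higher and 2 lower (median -0.16). Both counts were near the shares over all genes tested, 20.8% higher and 13.7% lower. The ligand Nodal had 13.2, 14.5 and 16.2 FPKM at day 14, against 16.8, 16.7 and 16.5 FPKM at day 0 and was not called. Its coreceptor Tdgf1 (Cripto) fell to 63.8, 70.0 and 85.9 FPKM at day 14, against 317, 346 and 312 FPKM at day 0. The inhibitor Lefty2 averaged 48.8 against 15.2 FPKM and rose by 1.65 ± 0.17 on the log2 scale. Lefty1 had 21.5, 21.3 and 51.3 FPKM at day 14, against 16.7, 14 and 13.8 FPKM at day 0; KO day 14 replicate 3 was well above the other day 14 libraries, and the gene was not called.

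The octamer, the sequence that Pou5f1 and related factors bind, was looked up in promoters because the list of pluripotency factors fell together. The letters ATGCAAAT, on either strand, occurred in 532 of 27025 genes with a promoter window in RefSeq (1.97%; GRCm38.p6, 250 bases before to 50 after the start), and in 1 of the 20 pluripotency factors with a window. That gene was Zfp42, shown here on its own strand with the match in capitals, 186 to 179 bases upstream of its start (chr8:43307163-43307220, minus strand).
Zfp42: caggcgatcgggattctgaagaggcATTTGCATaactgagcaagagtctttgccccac
A match is a description of sequence and not a bound site, and the absence of these letters elsewhere in the list says only that the windows do not hold them.

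Epithelial genes rose to high levels. All 23 listed genes were tested, and 20 were called higher and 0 lower, with a median log2 change of 2.19; their summed level was 4712 to 5049.5 FPKM at day 14, against 356 to 369 FPKM at day 0. Krt18 and Krt8, the keratin pair of simple epithelia, had 1765, 1694 and 1583 FPKM at day 14, against 8.4, 9.85 and 8.67 FPKM at day 0 for Krt18, and 1291, 1179 and 1265 FPKM at day 14, against 18.7, 18.9 and 16.5 FPKM at day 0 for Krt8. Every differentiated library exceeded every undifferentiated one by well over an order of magnitude in both. Krt19 had 287, 269.7 and 324 FPKM at day 14, against 1.54, 1.79 and 1.31 FPKM at day 0, and Krt7 101, 91.1 and 84 FPKM at day 14, against 0.17, 0.325 and 0.177 FPKM at day 0. Of the claudins, which seal tight junctions, Cldn4 had 567, 492 and 464 FPKM at day 14, against 15.6, 17.1 and 15.5 FPKM at day 0 (log2 change 4.97 ± 0.09, limma adjusted p = 3.1e-08), and Cldn6, Cldn3 and Cldn7 had log2 changes of 4.39, 5.04 and 3.64. Esrp1 and Esrp2, which direct epithelial splicing, rose by 2.19 and 2.95.

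Cdh1 and Epcam, junction genes that ESCs already express at a higher level, changed less. Cdh1 (E-cadherin) had 171, 187 and 219.8 FPKM at day 14, against 113, 109 and 112 FPKM at day 0 and was not called, nor was Grhl3, a factor of surface epithelia. Epcam had 129.7, 129 and 155 FPKM at day 14, against 65.7, 69.7 and 63 FPKM at day 0; its call was lost without KO day 14 replicate 3, with library weights, and in the test against a 2-fold change. Of 15 genes of stratified epithelium, 8 were tested and 5 were called higher (median 1.74). Desmosomal genes led these, with Dsp (desmoplakin) at 37.5, 44.7 and 40.7 FPKM at day 14, against 1.55, 1.55 and 1.52 FPKM at day 0, and Perp at 125, 107 and 89.4 FPKM, against 10.9, 12.2 and 11.3 FPKM. Krt14, the basal keratin, reached 9.03, 10.1 and 16.1 FPKM, but the master regulator Trp63 averaged 0.259 against 0.0113 FPKM and Krt5, the usual partner of Krt14, 0.822 against 0 FPKM, both under the filter.

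Genes known from the trophoblast, the outer lineage of the embryo that builds the placenta, were mostly called higher where they passed the filter. Its hormone genes stayed low. Only 3 of the 12 tested genes reached 1 FPKM in all 6 libraries, so the count of calls depends on the filter. Of 27 genes, 12 of which were tested, 11 were called higher and 0 lower, with a median log2 change of 4.55 (1.60 over the 3 genes at 1 FPKM in all 6 libraries); the median was 4.76 with the genes at 0 on day 0 placed at their bound. Hand1, a factor of both trophoblast giant cells and early heart, had 133, 153 and 154 FPKM at day 14, against 0.371, 0.316 and 0.425 FPKM at day 0 (log2 change 8.29 ± 0.11, limma adjusted p = 1.2e-08). Plac1 had 14.5, 17.6 and 28.9 FPKM at day 14, against 0.0408, 0 and 0 FPKM at day 0, and Gata3 4.09, 4.36 and 4.07 FPKM at day 14, against 0.0143, 0.072 and 0.0427 FPKM at day 0. Tfap2c and Gata2, further trophoblast factors that are not limited to that lineage, rose by 1.34 and 1.60 on the log2 scale. Of the hormone and protease genes, Prl3d1 (placental lactogen I of giant cells) had 2.06, 2.22 and 4.35 FPKM at day 14, against 0 FPKM in all 3 libraries at day 0, at least 44.2-fold higher, and Prl2c2 1.56, 1.45 and 4.43 FPKM at day 14, against 0 FPKM in all 3 libraries at day 0. Tpbpa, the marker of the spongiotrophoblast, averaged 0.00803 FPKM at day 14, and Gcm1, the syncytiotrophoblast factor, 0.301 FPKM, both under the filter. Eomes averaged 1.08 against 0.755 FPKM and was not called, and Cdx2 and Elf5 were under the filter. The Prl and cathepsin genes belong to families with near-identical copies, and counting may have split their reads.

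Imprinted genes, expressed from a single parental allele and many of them active in placenta and embryonic mesoderm, rose in number. Of 25 genes, 17 of which were tested, 14 were called higher and 1 lower, with a median log2 change of 2.09. H19 (chr7:142575529-142578143 in mm10), a maternally expressed non-coding RNA, had 1741, 1744 and 1919 FPKM at day 14, against 0.718, 0.931 and 0.76 FPKM at day 0, among the most abundant transcripts of the differentiated cells (log2 change 10.97 ± 0.10, limma adjusted p = 6.8e-09). Its neighbour Igf2 had 6.82, 8.19 and 11.8 FPKM at day 14, against 0.00995, 0 and 0 FPKM at day 0. Cdkn1c, a CDK inhibitor, had 41.6, 37.8 and 45.4 FPKM at day 14, against 0.922, 1.43 and 1.06 FPKM at day 0, Peg3 51.2, 63.9 and 85.8 FPKM at day 14, against 1.97, 1.85 and 2.05 FPKM at day 0, and Peg10, a retrotransposon-derived gene that the placenta needs, 252, 311 and 288 FPKM at day 14, against 11.1, 11 and 12.8 FPKM at day 0. Not all members moved up: Phlda2, which restrains placental growth, fell to 8.66, 9.88 and 5.84 FPKM at day 14, against 28.6, 27.9 and 28.5 FPKM at day 0. Dlk1, Meg3 and Rian, which share 1 imprinted domain, were under the filter.

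Contractile genes rose in number, but several that mark mature muscle stayed low. In the smooth muscle list, of 20 genes, 14 of which were tested, 10 were called higher and 0 lower, with a median log2 change of 2.38 (1.14 over the 8 genes at 1 FPKM in all 6 libraries). Acta2, smooth muscle actin, had 225, 153 and 239.9 FPKM at day 14, against 0.726, 0.6 and 0.567 FPKM at day 0 (log2 change 8.12 ± 0.18, limma adjusted p = 6.5e-08). Cnn2, a broadly expressed calponin, had 165, 154 and 138 FPKM at day 14, against 12.5, 13.5 and 11.3 FPKM at day 0, and Lmod1, an actin nucleator, 18, 13.9 and 9.8 FPKM at day 14, against 0.303, 0.29 and 0.23 FPKM at day 0. Tagln and Cnn1, which rise with Acta2 in mature smooth muscle, were called higher at low levels (1.45 against 0.124 FPKM and 1.93 against 0.604 FPKM), and Myh11, the myosin that defines the mature cell, averaged 0.074 against 0.0599 FPKM, under the filter.

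In the skeletal muscle list, of 28 genes, 14 of which were tested, 12 were called higher and 1 lower, with a median log2 change of 4.21 (-0.40 over the 3 genes at 1 FPKM in all 6 libraries). Acta1, skeletal actin, had 169, 145 and 159 FPKM at day 14, against 1.3, 0.746 and 0.811 FPKM at day 0 (log2 change 7.26 ± 0.18, limma adjusted p = 1.1e-07). Myog, the factor that starts terminal differentiation, had 22, 15.9 and 26.6 FPKM at day 14, against 0.152, 0.383 and 0.265 FPKM at day 0. Myod1, which commits cells to the lineage, reached 2.37, 1.59 and 1.27 FPKM at day 14, against 0.0306, 0 and 0 FPKM at day 0. The embryonic myosin Myh3 had 3.73, 3.97 and 7.09 FPKM at day 14, against 0.997, 1.13 and 0.776 FPKM at day 0, and Myl1 6.61, 4.7 and 7.84 FPKM at day 14, against 0 FPKM in all 3 libraries at day 0, at least 233-fold higher. Adult myosins (Myh1 and Myh2) and Ckm, the muscle creatine kinase, each averaged at most 0.0651 FPKM at day 14. Mymx, a micropeptide for myoblast fusion, was high in undifferentiated cells and fell to 16.3, 14.2 and 18.2 FPKM at day 14, against 113, 115 and 109 FPKM at day 0.

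Cardiac genes moved in both directions. Of 28 genes, 14 of which were tested in the cardiac sarcomere list, 8 were called higher and 2 lower, with a median log2 change of 3.83 (0.72 over the 6 genes at 1 FPKM in all 6 libraries). Over all genes tested, 20.8% were called higher and 13.7% lower, so the 2 lower calls were near that share. Actc1, cardiac actin, had 72, 54.7 and 108 FPKM at day 14, against 0.0352, 0.0354 and 0 FPKM at day 0 (limma adjusted p = 1.6e-07), with KO day 14 replicate 3 the highest. Cryab, a small heat shock protein of muscle, lens and stressed cells, had 505, 454 and 318 FPKM at day 14, against 3.08, 3.25 and 2.95 FPKM at day 0, and Tpm1, a tropomyosin of many cell types, 234, 202 and 181 FPKM at day 14, against 12.1, 12.8 and 12 FPKM at day 0. The troponins were at low to moderate levels, with Tnnc1 at 17.7, 15.1 and 22.3 FPKM at day 14, against 0.492, 0.495 and 0.49 FPKM at day 0, and Tnnt2 at 3.87, 2.42 and 4.56 FPKM, against 0.0955, 0.0591 and 0.0511 FPKM. Other heart muscle genes did not rise: Myh6, the alpha myosin of the heart, fell to 0.588, 0.774 and 0.91 FPKM at day 14, against 3.51, 3.62 and 3.55 FPKM at day 0, and Tnni3 fell to 0.623, 0.941 and 1.04 FPKM, against 2.18, 2.39 and 2.11 FPKM. Myl7, the atrial light chain, had 5.31, 5.02 and 6.37 FPKM at day 14, against 8.69, 11.1 and 9.5 FPKM at day 0 and was not called. Myh7 averaged 0.906 against 0.0992 FPKM, and Myl2 0.151 against 0.117 FPKM, both under the filter.

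Most regulators and channels of the heart were under the filter. Of 20 cardiac transcription factors 6 were tested, and 4 were called higher (Hand1, Irx4, Hopx and Mef2a). Their list had a median of 1.15 (-0.07 over the 1 gene at 1 FPKM in all 6 libraries); the calls of Hopx and Mef2a were lost with a pseudocount of 1. Nkx2-5, Gata4 and Tbx5, whose products switch on the cardiac program, averaged 0.737 against 0.299 FPKM, 0.761 against 0.18 FPKM and 0.048 against 0 FPKM and were under the filter. Of 25 calcium, channel and hormone genes 8 were tested, with 4 called higher and 1 lower. Nppb, the B-type natriuretic peptide, had 15.9, 15 and 18.6 FPKM at day 14, against 0.511, 0.44 and 0.29 FPKM at day 0, and Jph2, a junctional membrane protein, 20.3, 19.4 and 21.7 FPKM at day 14, against 0.375, 0.431 and 0.359 FPKM at day 0. Nppa, the atrial peptide, averaged 0.102 against 0.132 FPKM, and Pln (phospholamban), the brake of the sarcoplasmic calcium pump, was listed at 0 in all 6 libraries.

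The CArG box, CC followed by 6 bases of A or T and then GG, is bound by serum response factor and is known from actin and other contractile genes. It was searched on both strands of the same promoter windows because the actin genes stood among the largest rises. It occurred in 488 of 27025 genes (1.81%), in 4 of 16 smooth muscle genes with a window (Cnn2, Myl6, Myl9 and Vcl), in 6 of 24 cardiac sarcomere genes (Actc1, Ldb3, Myl3, Myl7, Myom1 and Nebl) and in 1 of 20 skeletal muscle genes (Acta1). The called members with the largest changes are shown on the gene's own strand, with the box in capitals. In Actc1 it lay 47 to 38 bases upstream of the start (chr2:114052888-114052947, minus strand), in Acta1 73 to 64 (chr8:123894814-123894873, minus strand), in Cnn2 56 to 47 (chr10:79988519-79988578, plus strand) and in Myl9 161 to 152 (chr2:156775278-156775337, plus strand).
Actc1: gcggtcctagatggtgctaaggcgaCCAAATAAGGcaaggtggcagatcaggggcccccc
Acta1: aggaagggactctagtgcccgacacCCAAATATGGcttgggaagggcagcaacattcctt
Cnn2: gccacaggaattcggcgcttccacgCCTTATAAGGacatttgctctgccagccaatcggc
Myl9: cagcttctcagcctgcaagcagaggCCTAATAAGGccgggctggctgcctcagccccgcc
Srf, the gene of serum response factor, had 16.8, 14.3 and 16.3 FPKM at day 14, against 16.8, 16.2 and 16.8 FPKM at day 0 and was not called. Ldb3, Myl3 and Myl7 hold the same letters and were not called or were under the filter, so a match went with a rise in some members and not in others.

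Genes of the extracellular matrix rose widely. Of 34 genes, 21 of which were tested in the interstitial matrix list, 18 were called higher and 0 lower, with a median log2 change of 3.80 (2.18 over the 9 genes at 1 FPKM in all 6 libraries). Sparc, a collagen-binding glycoprotein, had 642, 565 and 551 FPKM at day 14, against 54.7, 59.4 and 55.2 FPKM at day 0. Col1a1 and Col1a2, the chains of type I collagen, had 38.9, 43.3 and 46.8 FPKM and 19.5, 17.6 and 19.8 FPKM at day 14, against 0.2, 0.253 and 0.345 FPKM and 0.00917, 0.023 and 0 FPKM at day 0. Col3a1 had 6.75, 5.27 and 9.91 FPKM at day 14, against 0 FPKM in all 3 libraries at day 0, at least 1259.6-fold higher. Serpinh1, the collagen chaperone, rose by 3.33 ± 0.07 on the log2 scale and Fn1 (fibronectin) by 2.17 ± 0.19. Dcn and Lum, proteoglycans that mark settled fibroblasts, averaged 0.197 against 0 FPKM and 0.319 against 0 FPKM and were under the filter.

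The basement membrane list held 16 genes, 13 of which were tested; 9 were called higher and 0 lower, with a median log2 change of 1.79. Col4a1 and Col4a2, the partner chains of type IV collagen, had 198, 223 and 231 FPKM and 181, 201 and 218 FPKM at day 14, against 6.44, 5.76 and 6.99 FPKM and 3.1, 3.09 and 3.45 FPKM at day 0. Both chains thus rose to a like level in every library. The laminin chains Lama5, Lamb1 and Lamb2 rose by 1.79, 2.15 and 2.47 on the log2 scale, while Lama1 and Lamc1, already expressed in ESCs, were not called. Of 21 mesenchymal genes 12 were tested, with 10 called higher and 1 lower. S100a6, Lgals1 and Anxa1, which epithelia express as well, led with log2 changes of 5.78, 3.65 and 8.65. Vim (vimentin) had 135, 94.6 and 108 FPKM at day 14, against 19.3, 19.6 and 18.4 FPKM at day 0. The transition factors were low, Snai1 at 4.41, 4.95 and 5.07 FPKM and Twist1 at 3.06, 2.38 and 2.54 FPKM at day 14, against 0.633, 0.424 and 0.699 FPKM and 0.525, 0.633 and 0.487 FPKM at day 0; Cdh2 (N-cadherin), Snai2 and Zeb2 were under the filter, and Zeb1 was not called.

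Few endothelial and blood markers passed the filter and rose. Of 20 endothelial genes 10 were tested, with 1 called higher (Flt1) and 3 lower (Robo4, Plvap and Etv2). Pecam1, which ESCs express themselves, had 9.67, 10.6 and 12.5 FPKM at day 14, against 11.2, 11.4 and 11.6 FPKM at day 0, while Cdh5 (VE-cadherin) averaged 0.85 against 0.0136 FPKM, and Tie1 0.115 against 0.081 FPKM, both under the filter. In the blood and macrophage list 5 of 26 genes were tested and all 5 were called higher. Only 1 of these reached 1 FPKM in all 6 libraries, so this count depends on the filter. Csf1r, the receptor of macrophages that trophoblast also expresses, had 12.8, 14.6 and 20.0 FPKM at day 14, against 0, 0 and 0.00981 FPKM at day 0 (limma adjusted p = 1.5e-07), and Cd68, a lysosomal membrane protein, 57.9, 61 and 49.2 FPKM at day 14, against 4.26, 3.01 and 4.73 FPKM at day 0. The defining genes of those cells were close to 0, with Ptprc (CD45) at 0.0179 FPKM and C1qa at 0.0165 FPKM at day 14. Embryonic globins were just detectable, Hbb-bh1 at 2.18, 1.58 and 0.263 FPKM and Hbb-y at 1.54, 1.94 and 0.763 FPKM at day 14, and neither passed the filter in this comparison.

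Genes of interferon response and antigen presentation were mostly higher at day 14. Their summed level was 1187 to 1364 FPKM at day 14, against 483 to 560 FPKM at day 0. The sum was thus not near 0 in undifferentiated cells, although members such as Isg15 and Cxcl10 were. Of 25 genes, 22 of which were tested, 18 were called higher and 0 lower, with a median log2 change of 2.82 (1.65 over the 13 genes at 1 FPKM in all 6 libraries). B2m, the light chain of MHC class I, had 123, 120.1 and 126 FPKM at day 14, against 6.89, 8.66 and 8.23 FPKM at day 0 (log2 change 3.95 ± 0.09, limma adjusted p = 8.0e-08), and H2-D1, a heavy chain, 47.9, 43.5 and 48 FPKM at day 14, against 3.05, 3.09 and 3.16 FPKM at day 0. The peptide transporter Tap1 and the chaperone Tapbp rose by 4.63 and 3.72. Isg15, the ubiquitin-like product of interferon signalling, had 20.3, 19.4 and 23.1 FPKM at day 14, against 0, 0 and 0.0806 FPKM at day 0, and the chemokine Cxcl10 22.7, 15.8 and 12.3 FPKM at day 14, against 0.0506, 0.127 and 0.226 FPKM at day 0. The transducers Stat2 and Irf1 were not called, with log2 changes of 0.17 and 0.75.

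Most endoderm, mesoderm and neural genes were under the filter. Of 15 endoderm transcription factors only Prdm1 was tested, and it was not called; Sox17, Foxa2 and Hnf4a averaged 0.478 against 0.0677 FPKM, 0.224 against 0.00801 FPKM and 0.211 against 0.397 FPKM. Of 28 secreted proteins of yolk sac and liver 8 were tested, with 3 called higher and 1 lower. Apoe, an apolipoprotein of many tissues, had 215, 175 and 212 FPKM at day 14, against 75.8, 84.3 and 75.9 FPKM at day 0, whereas Afp, Ttr and Alb, which define visceral endoderm and liver, averaged 0.0519, 0.174 and 0.0219 FPKM at day 14. Of 15 early mesoderm genes 4 were tested and Mesp2 alone was called, as lower; T (brachyury) averaged 0.0598 against 0.0903 FPKM, Mesp1 0.0269 against 0.387 FPKM and Kdr 0.339 against 0.0631 FPKM.

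In the neural list, of 28 genes, 10 of which were tested, 2 were called higher and 6 lower, with a median log2 change of -1.93 (-0.81 over the 5 genes at 1 FPKM in all 6 libraries). With no filter on low values its median was -0.20. Tubb3 and Stmn2, a tubulin and a microtubule regulator of neurons that ESCs express at a moderate level, had 11.4, 8.36 and 9.39 FPKM and 18, 17.2 and 19.7 FPKM at day 14, against 82.3, 91.9 and 77 FPKM and 85.5, 96.7 and 82.8 FPKM at day 0. Sox1, the first neuroectoderm factor, fell to 0.319, 0.296 and 0.2 FPKM at day 14, against 3.48, 3.22 and 3.12 FPKM at day 0. En1, a homeobox gene of midbrain and limb ectoderm, and Nes (nestin) rose, En1 to 2.88, 2.53 and 2.5 FPKM, against 0.0868, 0.0218 and 0.0432 FPKM. Pax6, Dcx, Neurog2 and Rbfox3 were under the filter. Of 39 Hox genes, which give cells their position along the body axis, 6 were tested and 5 were called higher (Hoxb4, Hoxd9, Hoxc6 and Hoxb9 among them), none above 3.09 FPKM on average.

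Several Wnt ligands rose. Of 35 Wnt pathway genes 25 were tested, with 12 called higher and 4 lower. The median was 0.63 (-0.48 over the 14 genes at 1 FPKM in all 6 libraries). Wnt6 had 126, 93 and 78.1 FPKM at day 14, against 1.4, 1.44 and 1.58 FPKM at day 0, Wnt9a 42.6, 37.1 and 40.9 FPKM at day 14, against 0.222, 0.12 and 0.221 FPKM at day 0, and Wnt7b 29, 27.8 and 26.6 FPKM at day 14, against 0.256, 0.222 and 0.324 FPKM at day 0; the groups were far apart for all. Among receptors, Fzd2 rose to 48.8, 34.8 and 27.5 FPKM at day 14, against 1.71, 2.2 and 2.09 FPKM at day 0, and Fzd5 fell to 5.95, 6.76 and 6.94 FPKM, against 28.2, 26.3 and 29.3 FPKM. The secreted antagonist Dkk1 rose by 4.91 ± 0.19 on the log2 scale and Sfrp2 fell by 1.74. Axin2, the usual readout of the canonical route, averaged 1.67 against 2.7 FPKM and was not called.

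In the BMP pathway 8 of 15 tested genes were called higher and 0 lower. The antagonist Nog (noggin) had 24.9, 21.3 and 23.8 FPKM at day 14, against 0, 0 and 0.234 FPKM at day 0, and Msx2, a homeobox target, averaged 20.5 against 0.486 FPKM and rose by 5.14 on the log2 scale. The targets Id2 and Id3 rose by 2.31 and 1.78, while Id1 and the ligand Bmp4 were not called (Bmp4 averaged 25.6 against 16.7 FPKM). In the FGF pathway, 8 of 15 tested genes were called lower and 4 higher. Those lower were the ligands Fgf17, Fgf15 and Fgf18, the feedback genes Spry4 and Spry2, and the ETS factors Etv4, Etv5 and Etv1; those higher were Fgf5, Spry1, Dusp4 and Fgfr2. Fgfr2, the receptor of epithelia and trophoblast stem cells, had 3.7, 4.14 and 5.93 FPKM at day 14, against 0.0662, 0.0887 and 0.0768 FPKM at day 0. Spry family members thus moved in both directions, and Dusp6 and Fgfr1 were not called.

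Most tested genes of the IGF axis rose. Of 12 tested genes 9 were called higher and 0 lower, with a median of 2.46 (1.63 over the 9 genes at 1 FPKM in all 6 libraries). Igfbp2 had 1378, 1072 and 1054 FPKM at day 14, against 205, 227 and 196 FPKM at day 0, and Igfbp6 233, 198 and 157 FPKM at day 14, against 0.41, 0.464 and 0.102 FPKM at day 0. Igfbp7 had 294, 180.1 and 72.2 FPKM at day 14, against 4.1, 5.78 and 3.56 FPKM at day 0, with replicate 1 the highest and replicate 3 the lowest at day 14. The receptors Igf1r and Igf2r rose by 1.63 and 1.48 on the log2 scale. The RNA-binding proteins Igf2bp1, Igf2bp2 and Igf2bp3 were not called.

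Cell cycle genes were lower at day 14, by modest factors. All 34 replication and mitosis genes were tested; 0 were called higher and 22 lower, with a median log2 change of -1.21. Mcm5, a subunit of the replicative helicase, had 59.6, 61.2 and 79.4 FPKM at day 14, against 244, 261 and 237 FPKM at day 0, and Ccne1 (cyclin E) 24.6, 22.8 and 21.8 FPKM at day 14, against 94.9, 101 and 89.6 FPKM at day 0. Mki67, present in all cycling cells, had 5.34, 7.87 and 10.3 FPKM at day 14, against 31, 29 and 31.3 FPKM at day 0. Cdk1 and Ccnb1 were not called, at log2 changes of -0.83 and -0.96. In the list of G1 cyclins, Myc genes and CDK inhibitors 15 genes were tested, with 5 called higher and 3 lower (median 0.48). Among the inhibitors, Cdkn2b (p15) had 75.9, 49.3 and 39.6 FPKM at day 14, against 0.41, 0.247 and 0.611 FPKM at day 0, Cdkn1a (p21) 122, 101 and 102 FPKM at day 14, against 15.7, 18 and 14.6 FPKM at day 0, and Cdkn2a 124, 84.9 and 70.7 FPKM at day 14, against 13.8, 14.2 and 15.5 FPKM at day 0. Mycn and Ccnd1 fell, Mycn to 12.1, 14.1 and 19.7 FPKM at day 14, against 44.5, 43.7 and 43.8 FPKM at day 0.

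Genes of energy metabolism were counted by route, beside 20.8% called higher and 13.7% called lower of all genes tested. None of 24 nuclear genes of the respiratory chain was called in either direction (median -0.28). Of 21 glycolysis genes 1 was called higher and 4 lower: the glucose transporter Slc2a1 had 447, 389 and 309 FPKM at day 14, against 131, 142 and 126 FPKM at day 0, and Hk2, the inducible hexokinase, 11.7, 13.1 and 14.1 FPKM at day 14, against 48.2, 45.9 and 46.3 FPKM at day 0. In the list of fatty acid and creatine metabolism 5 of 12 tested genes were called higher and 1 lower (all genes tested: 20.8% and 13.7%). Fabp3, the heart-type fatty acid binding protein, which trophoblast also expresses, had 896, 861 and 609 FPKM at day 14, against 65.5, 69.2 and 60.8 FPKM at day 0. Ckmt2 and Cox8b, restricted to striated muscle, were under the filter, and Cpt1a fell by 1.14 on the log2 scale.

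In the route that Snap29 serves, 25 of 32 tested lysosomal genes and 8 of 33 tested autophagy genes were called higher and none lower, against 20.8% called higher of all genes tested. The autophagosome SNARE Stx17 had 3.49, 3.69 and 4.26 FPKM at day 14, against 2.13, 2.33 and 2.21 FPKM at day 0 and its partner Vamp8 averaged 0.795 against 0.0575 FPKM, under the filter. Snap23 had 10.7, 11.1 and 11.4 FPKM at day 14, against 11.2, 11.8 and 10.4 FPKM at day 0, Snap47 averaged 66.8 against 39.3 FPKM and Ykt6 32.3 against 42.5 FPKM, and none of these was called; besides Snap29, Stx7 rose (log2 change 1.80 ± 0.08). Among the autophagy genes, Sqstm1 (p62), a cargo receptor that is itself degraded by autophagy, had 265, 255 and 255 FPKM at day 14, against 36.7, 39.9 and 37.1 FPKM at day 0 (log2 change 2.77 ± 0.06, limma adjusted p = 5.3e-08). Gabarapl1 and Gabarap, ubiquitin-like proteins of the autophagosome membrane, rose by 1.97 and 1.95. The initiation and lipid kinase genes Ulk1, Becn1 and Pik3c3 were not called, with log2 changes of -0.64, 0.28 and -0.69.

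Of 34 genes, 32 of which were tested in the lysosome list, 25 were called higher and 0 lower, with a median log2 change of 1.52. Ctsd (cathepsin D) had 209, 186 and 166 FPKM at day 14, against 28.4, 33.4 and 27.5 FPKM at day 0, and Ctsl 104, 99.2 and 109 FPKM at day 14, against 15.5, 17 and 14.4 FPKM at day 0. The membrane proteins Lamp2 and Cd63 rose by 2.57 and 3.59 on the log2 scale, and Lamp1 was not called (217 against 122 FPKM). Hydrolases of several substrates were among the rises, with Hexa and Neu1 at 2.50 and 2.63. Tfeb, the transcription factor of lysosomal genes, had 3.04, 3.67 and 3.21 FPKM at day 14, against 5.47, 5.67 and 5.65 FPKM at day 0 and was not called. The adhesion gene Jam2 had 20.0, 22.2 and 20.8 FPKM at day 14, against 55.2, 52.6 and 58.4 FPKM at day 0 and was called lower.

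The 3 differentiated libraries were more unlike each other than the 3 undifferentiated ones. The median SD of log2 values over the tested genes was 0.142 at day 14 and 0.0964 at day 0, and 259, 236 and 354 genes lay more than 2-fold from the mean of the other libraries in replicates 1, 2 and 3 at day 14, against 180, 203 and 194 at day 0. Among the listed genes with a mean of at least 10 FPKM at day 14, Igfbp7 had the widest spread (SD 1.03 on the log2 scale), with replicate 3 the lowest. Tgfbi, a matrix protein, had 22.2, 23.8 and 59.3 FPKM, Plac1 14.5, 17.6 and 28.9 FPKM and Dnmt3l 42.7, 47.5 and 77.2 FPKM, with replicate 3 the highest of each. Igfbp5 had 4.23, 4.41 and 18.9 FPKM and Lyz2 6.99, 6.32 and 1.67 FPKM in replicates 1, 2 and 3, so that replicate 3 stood apart in both directions. Whether replicate 3 held other proportions of cell types was not tested.

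Whether a change was particular to knockout cells was tested as the difference between the KO change and the WT change, over all 12 libraries. Of 14110 genes tested, 360 (2.55%) had a higher change in Snap29-/- cells and 311 (2.2%) a lower one, at adjusted p under 0.05 and at least 2-fold. With libraries scaled to equal totals these were 175 and 508, so that higher differences made up 25.6% of the calls in place of 53.7%, and the median over all genes moved from 0.04 to -0.21. Without WT day 14 replicate 3, which stood apart from the other WT libraries, the counts were 560 and 535. The 5 largest higher differences among protein-coding genes with a mean of at least 10 FPKM in a group were in Actc1, Crct1, Acta1, Acta2 and Thbs1. Actc1 averaged 78.3 FPKM at day 14 and 0.0235 FPKM at day 0 in Snap29-/- cells, against 24.2 FPKM and 1.52 FPKM in WT cells (difference 5.63 ± 0.68 on the log2 scale, limma adjusted p = 7.6e-04). Crct1, a gene of the epidermal differentiation complex, averaged 15 FPKM at day 14 and 0.0481 FPKM at day 0 in Snap29-/- cells, against 3.36 FPKM and 1.01 FPKM in WT cells (difference 4.91 ± 0.59). Acta1 averaged 158 FPKM at day 14 and 0.952 FPKM at day 0 in Snap29-/- cells, against 29.1 FPKM and 3.25 FPKM in WT cells (difference 4.35 ± 0.52), and Acta2 206 FPKM at day 14 and 0.631 FPKM at day 0 in Snap29-/- cells, against 79 FPKM and 3.26 FPKM in WT cells (difference 3.73 ± 0.47). In all 4, the knockout mean was higher at day 14 and lower at day 0. On the log2 scale, the genotypes were further apart at day 0 than at day 14 for Actc1, Crct1 and Acta2. The knockout day 0 means of these genes were under 1 FPKM. Thbs1 had similar day 14 means, 132 FPKM in Snap29-/- cells and 123 FPKM in WT cells. At day 0 it averaged 0.0469 FPKM in Snap29-/- cells and 1.1 FPKM in WT cells. Its difference (3.34 ± 0.51, lost with a pseudocount of 1) thus came from the level at day 0.

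The largest lower differences were in placental genes that stayed near 0 in the knockout. Ctsj, a placental cathepsin, averaged 0.256 FPKM at day 14 and 0 FPKM at day 0 in Snap29-/- cells, against 79.2 FPKM and 0 FPKM in WT cells (difference -7.69 ± 0.42, limma adjusted p = 1.2e-05). Prl7d1, Tpbpa, Prl2b1 and Prl6a1 followed, with 0.168, 0.00803, 0 and 0.0294 FPKM in Snap29-/- cells at day 14, against 53.7, 18.1, 16.6 and 13.9 FPKM in WT cells. Prl3d1 averaged 2.88 FPKM at day 14 and 0 FPKM at day 0 in Snap29-/- cells, against 32.1 FPKM and 0 FPKM in WT cells (difference -3.50 ± 0.36). At day 14 Ctsj had 0.216, 0.251 and 0.301 FPKM in the Snap29-/- libraries, against 66.5, 123 and 47.9 FPKM in the WT libraries, and Prl3d1 2.06, 2.22 and 4.35 FPKM, against 28.9, 29 and 38.4 FPKM; the genotypes did not overlap. Hand1 averaged 147 FPKM at day 14 and 0.371 FPKM at day 0 in Snap29-/- cells, against 139.7 FPKM and 0.239 FPKM in WT cells, and Plac1 20.4 FPKM at day 14 and 0.0136 FPKM at day 0 in Snap29-/- cells, against 23.6 FPKM and 0 FPKM in WT cells, and neither was called in the test of the difference.

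Cdh5 averaged 0.85 FPKM at day 14 and 0.0136 FPKM at day 0 in Snap29-/- cells, against 21 FPKM and 0.0992 FPKM in WT cells (difference -3.46 ± 0.61), while Pecam1 was not called. Among genes that rose in both genotypes, H19 differed by 3.62 ± 0.14 and averaged 1801 FPKM at day 14 and 0.803 FPKM at day 0 in Snap29-/- cells, against 2013 FPKM and 12.2 FPKM in WT cells; here too the day 14 levels were alike and the knockout was lower at day 0. Dppa3 followed the same pattern, at 29.8 FPKM at day 14 and 0.894 FPKM at day 0 in Snap29-/- cells, against 40.9 FPKM and 3.95 FPKM in WT cells (difference 1.61 ± 0.30). Krt18 averaged 1681 FPKM at day 14 and 8.97 FPKM at day 0 in Snap29-/- cells, against 915 FPKM and 10.1 FPKM in WT cells (difference 1.08 ± 0.20), a call that was lost with libraries scaled to equal totals and without WT day 14 replicate 1. Of the pluripotency factors, Dppa3 alone was called in the test of the difference; the median difference over the list was 0.19, against 0.04 over all genes tested. In the cardiac sarcomere list 2 of 15 tested genes had a higher difference (Actc1 and Tpm1) and 0 a lower one, and in the trophoblast list 0 of 20 a higher and 11 a lower one. At day 14 the sarcomere list summed to 725 to 915 FPKM in Snap29-/- libraries, against 342, 285 and 846 FPKM in WT replicates 1, 2 and 3. Most of each Snap29-/- sum came from Cryab and Tpm1, which are not limited to heart muscle. WT replicate 3 also had the highest WT sums of skeletal and smooth muscle genes. These, at 146 and 587 FPKM, were under the lowest Snap29-/- sums of 252 and 614 FPKM.

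**Figure D4:**
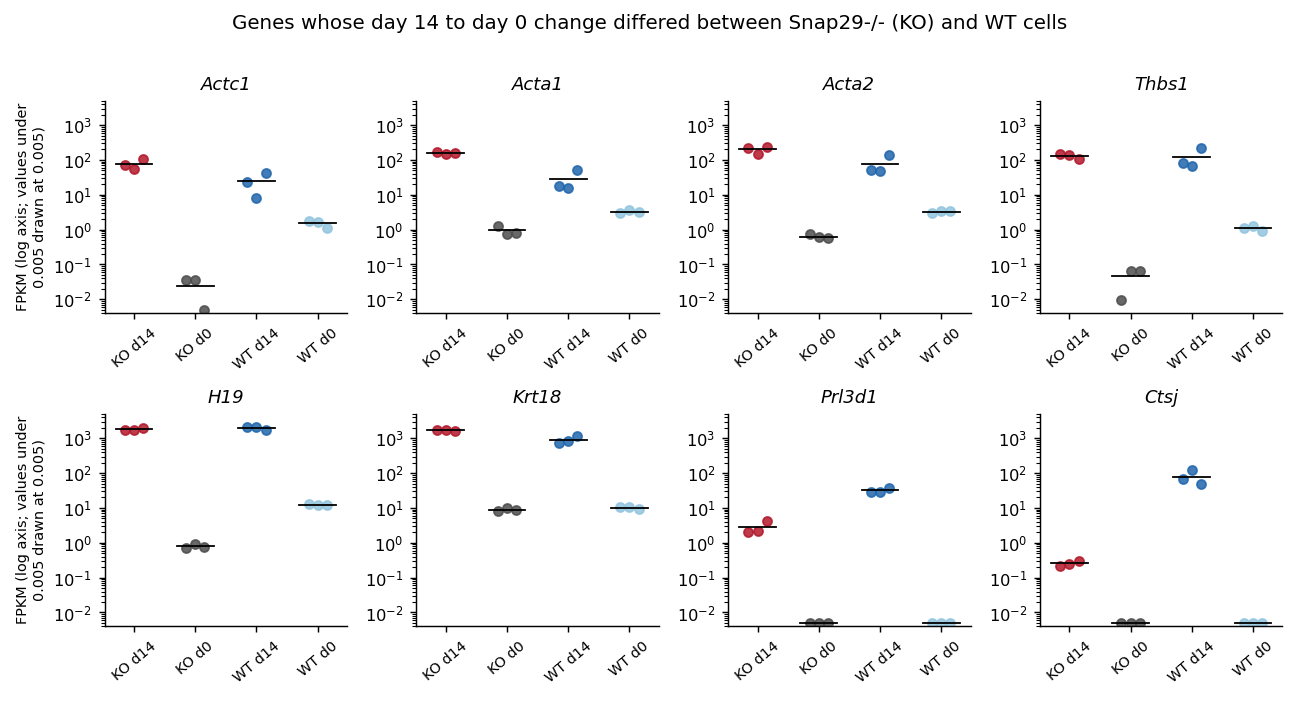
FPKM (log axis) of 8 genes whose day 14 to day 0 change differed between genotypes, with KO day 14 (red), KO day 0 (grey), WT day 14 (dark blue) and WT day 0 (light blue) from left to right in each panel; points are the 3 libraries, lines the group means, and values under 0.005 are drawn at 0.005. The means of Actc1, Acta1 and Acta2 are higher in KO than in WT at day 14 and lower at day 0. Thbs1 and H19 reach like levels at day 14, and Prl3d1 and Ctsj are far lower in KO than in WT at day 14.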

How the data were processed

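RNA of Snap29-/- and WT J1 cells, 3 libraries per group at day 14 and day 0, had been made from poly(A) mRNA and sequenced by the authors. Per the study's methods and the submitters' processing notes, reads had been mapped to mm10 (HISAT2 2.0.5) and assigned to genes (featureCounts 1.5.0-p3) by the authors, who used DESeq2 for their own comparisons. The annotation release and the strand setting are not given in the sources used here, so antisense and overlapping genes cannot be told apart. The deposited unit was FPKM per gene and library; no other measurement was used, and no per-sample column was left unmatched. FPKM values were whole multiples of 1 fragment in 100% of genes (tolerance 0.001), which gave fragments per gene and library totals. The study calls the replicates biological.

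Values were taken as log2(FPKM + 0.1), a gene was kept where 3 or more of the 6 libraries reached 1 FPKM, and the 2 days were compared with limma 3.58.1 (lmFit and eBayes with trend, two-sided) in R 4.3.3, with Benjamini-Hochberg adjustment over all genes tested. Called means adjusted p under 0.05 and at least 2-fold. limma on the log scale took the place of the authors' count test because the deposited unit is FPKM. The difference between genotypes was a contrast of contrasts over all 12 libraries. The fit was also run on simulated data with 200 changed genes, fewer than were called here, and no result given here rests on that run. Lists are described by counts and medians, with no test of a list.

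The members and lists were chosen with earlier results of these data known. The genes named are the 10 largest rises and falls among called protein-coding genes (Gm and Rik models left out) with a mean of at least 10 FPKM in the higher group, the 10 most abundant genes of each day, the called members of each list with the largest changes and members a sentence is about, Snap29, Atrx, genes the study names and a few chosen with their values known (Irak3 and Tlr2), and the 5 largest differences between genotypes in each direction with the called members of the lists. Of 847 listed symbols 1 (Eif1ad8) had no match, 550 genes were tested and 296 were under the filter. Some genes are counted in lists but not reported here by name. Promoter windows came from RefSeq (GRCm38.p6). Alternatives were other pseudocounts, filters, scalings (equal totals, median ratio, quantile), voom on the recovered fragments, library weights, a fit on 12 libraries, a test against a 2-fold change, a replicate block, and leaving out each library.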

Additional observations from a re-analysis of the deposited data

Results flagged for a closer look

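The change between day 14 and day 0 differed between Snap29-/- and WT cells, in the limma test of the difference, in 98 of the named and listed genes (52 higher and 46 lower), 97 of which are given here. Each value is the KO change minus the WT change on the log2 scale. No cause was tested.

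Among muscle genes, the change in Snap29-/- cells was higher for Actc1 (5.63), Acta1 (4.35), Acta2 (3.73), Myl1 (2.61), Kcnj3 (2.20), Tagln (2.05), Trim54 (2.02), Cnn1 (1.98), Smyd1 (1.79), Cnn2 (1.77), Tpm1 (1.32), Myl9 (1.18) and Gja1 (1.01), and lower for Hand2 (-2.16) and Pdgfrb (-1.31). Among trophoblast genes, the change in Snap29-/- cells was lower for Ctsj (-7.69), Prl7d1 (-7.65), Tpbpa (-7.03), Prl2b1 (-7.01), Prl6a1 (-6.55), Ctsq (-5.42), Ctsr (-5.02), Prl3b1 (-4.54), Prl2c3 (-4.26), Prl2c2 (-3.57), Prl3d1 (-3.50), Syna (-2.96) and Gata2 (-1.17). Among matrix, basement membrane and mesenchymal genes, the change in Snap29-/- cells was higher for Thbs1 (3.34), Col5a2 (2.55), Col18a1 (1.32), Col1a2 (1.15) and Anxa1 (1.04), and lower for Col3a1 (-1.99), Cdh11 (-1.78), Twist1 (-1.71), Snai1 (-1.53), Prrx2 (-1.28), Zeb1 (-1.06) and Vcan (-1.03). Among epithelial genes, the change in Snap29-/- cells was higher for Cldn6 (1.58), Perp (1.47), Cldn4 (1.08), Krt18 (1.08) and Krt17 (1.02). Among pluripotency, formative, Nodal and DNA methylation genes, the change in Snap29-/- cells was higher for Lefty1 (2.81), Dnmt3l (2.56), Gdf3 (1.70), Dppa3 (1.61) and Otx2 (1.14), and lower for Etv4 (-1.26). Among endothelial, blood, endodermal, mesodermal and neural genes, the change in Snap29-/- cells was higher for Gap43 (2.58), Pax6 (1.91), Nes (1.31), Tek (1.22), Cd68 (1.11) and Lrp2 (1.06), and lower for Apoa1 (-4.58), Cdh5 (-3.46), Syp (-2.14), Esam (-2.07), Gsc (-2.07) and Trf (-1.36). Among signalling and imprinted genes, the change in Snap29-/- cells was higher for H19 (3.62), Nog (2.28), Wnt9a (1.89), Wnt7b (1.75), Wnt4 (1.59), Id2 (1.27), Igfbp3 (1.11), Snrpn (1.10), Dusp4 (1.08) and Mirg (1.05), and lower for Acvrl1 (-1.95), Nnat (-1.93), Slc22a18 (-1.72), Axin2 (-1.69), Ror2 (-1.67), Wnt6 (-1.65), Bmp4 (-1.49) and Spry4 (-1.14). Among other genes, the change in Snap29-/- cells was higher for Crct1 (4.91), Stk31 (1.88), Sprr1a (1.60), Tdrd12 (1.45), Ccnd2 (1.32), Ifitm1 (1.24) and Snap29 (1.11), and lower for Irak3 (-2.90), Tlr2 (-2.26), Igsf21 (-1.66), Cpt1a (-1.45), Ctsh (-1.29), Pfkp (-1.21), Inhbb (-1.12), Wipi1 (-1.02) and Mael (-1.01).

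Of the 98 differences, 48 were called under every alternative run. The call was lost without at least 1 of the 12 libraries in 34: Inhbb, Krt18, Snap29, Otx2, Gsc, Gja1, Myl1, Trim54, Tagln, Myl9, Col3a1, Vcan, Cldn4, Snai1, Twist1, Zeb1, Anxa1, Tek, Esam, Cd68, Lrp2, Krt17, Acvrl1, Nog, Dusp4, Mirg, Snrpn, Nnat, Ccnd2, Pfkp, Wipi1, Ifitm1, Mael and Tdrd12. With libraries scaled to equal totals it was lost in 22: Krt18, Snap29, Otx2, Gja1, Trim54, Tagln, Myl9, Col1a2, Cldn4, Anxa1, Tek, Cd68, Lrp2, Krt17, Nog, Dusp4, Igfbp3, Mirg, Snrpn, Ccnd2, Ifitm1 and Tdrd12. The Prl and cathepsin genes have near-identical copies, and their values are uncertain.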

How the results depend on the processing

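For Snap29-/- day 14 against day 0, the 2756 higher and 1810 lower calls depended most on which low genes were kept and on the fold limit. The higher count was 4328 with a filter of 0.1 FPKM, 4412 with no filter and 1503 with 1 FPKM in all 6 libraries, where the lower count was 1201. At adjusted p alone, 5055 genes were higher and 5006 lower, and a test against a 2-fold change gave 855 lower (2074 higher). Leaving out each library in turn gave 2694 to 2806 higher and 1725 to 1955 lower. In WT cells 2548 genes were higher and 1706 lower, with ranges of 2448 to 2588 and 1510 to 1841, and the lower count was 1133 with libraries scaled to equal totals. For the difference between genotypes (360 higher and 311 lower), that scaling gave 175 and 508, and a pseudocount of 1 gave 189 and 182. Leaving out each library gave 264 to 560 and 225 to 535, both upper ends without WT day 14 replicate 3. With a replicate block, 2761 genes were higher and 1824 lower in the knockout, and 295 and 251 in the difference between genotypes. Deviations from the group mean had correlations of -0.077, -0.059 and 0.049 between same-numbered knockout libraries of the 2 days. Between same-numbered knockout and WT libraries of day 14 they were -0.16, -0.078 and -0.37. No pairing by number was seen, but 3 libraries per group cannot exclude it. The block changed no call of a named or listed gene within the knockout and lost 11 of 98 in the difference. No called gene that is named or listed changed direction under any alternative. Of 354 called knockout genes, 33 were lost with a pseudocount of 1, 66 in the test against a 2-fold change, 16 under quantile scaling and 3 to 8 without any 1 library. The median of a gene list had the other sign in 4 of 38 lists over genes at 1 FPKM in all 6 libraries, in 2 of 39 with no filter and in 3 of 39 under quantile scaling. Values of genes under 1 FPKM rest on few fragments.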

Other observations

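Genes of the 2-cell-like state, a rare state of ESC cultures, were in part lower at day 14. Of 9 tested genes 5 were called lower and 0 higher, all of them Zscan4 copies: Zscan4d had 4.03, 3.73 and 1.82 FPKM at day 14, against 9.68, 12 and 11.5 FPKM at day 0, and Zscan4a 2.64, 2.26 and 1.32 FPKM at day 14, against 5.02, 6.96 and 6.96 FPKM at day 0. The calls of Zscan4c and Zscan4f were lost without KO day 14 replicate 3 and without KO day 0 replicate 2. The Zscan4 and Usp17l genes are near-identical copies, so values of single members are uncertain. Usp17lb had 10.4, 9.32 and 4.61 FPKM at day 14, against 4.01, 4.04 and 3.66 FPKM at day 0 and was not called.

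Germ cell genes did not move as a set. Of 12 tested genes 1 was called higher and 2 lower, against 20.8% and 13.7% of all genes tested. Dazl, an RNA-binding protein of germ cells, had 19.2, 23.3 and 16.2 FPKM at day 14, against 4.46, 3.88 and 4.09 FPKM at day 0, while Ddx4 (Vasa) fell to 2.44, 2.54 and 2.71 FPKM at day 14, against 15.6, 15.9 and 16 FPKM at day 0, and Nanos3 averaged 1.05 against 3.18 FPKM. Of 15 genes often used as references 2 were called, both higher and B2m among them (median log2 change -0.16). Actb, Hprt and Ywhaz had log2 changes of 0.25, -0.08 and -0.16. Gapdh had only 9.11, 4.05 and 4.4 FPKM at day 14, against 5.9, 9.6 and 9.43 FPKM at day 0; it has many processed copies in the genome, and its level here is uncertain.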
